A study of Homo sapiens with 12 samples.

Results

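The 10 genes GAS5, SNHG1, SNHG5, SNHG6, SNHG8, SNHG12, SNHG14, SNHG15, SNHG16 and ZFAS1 were examined as hosts of small nucleolar RNAs (snoRNAs). They were chosen by symbol from a count table of 59050 genes, and all 10 were found. The cells belonged to HUES8, an established line of human embryonic stem cells, without a genetic change. Neural progenitor cells (NPC) were made from them over 7 days by dual SMAD inhibition with 2.5 uM SB431542, which blocks the receptors of activin and Nodal, and 0.05 uM LDN193189, which blocks BMP receptors. SB431542 was left out for the last 2 days. The stem cells themselves (ESC) grew in mTeSR1 on Matrigel. Each state was sequenced as ribosome-bound RNA and as total RNA depleted of rRNA, with 3 libraries per state and assay, or 12 in all. The labels do not say whether the libraries came from separate cultures, so p-values measure the spread between libraries, which may be technical. They also do not give the share of cells in each dish that had become progenitors. Fewer cells with a transcript and less of it per cell cannot be told apart in such bulk samples.

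snoRNAs guide the chemical modification of ribosomal and other RNAs, and most human ones lie in introns of longer genes. Splicing frees the intron, which is trimmed down to the snoRNA, while the joined exons form the host transcript. In the genes studied here the joined exons encode no long protein. Host transcripts of this kind often begin with a 5' terminal oligopyrimidine (TOP) tract, the start that ribosomal protein mRNAs share, and several are known in human cells to be bound by ribosomes and destroyed by nonsense-mediated decay. GAS5, a gene first found through its accumulation in growth-arrested mouse cells, is the best-known case.

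RefSeq (GRCh38.p14) calls all 10 genes lncRNA. GAS5 lies at chr1:173863901-173869045 on the minus strand and has 11 annotated snoRNAs in its span. SNHG1, at chr11:62851978-62855885 on the minus strand, has 9. SNHG5 (chr6:85677007-85678733) has 2, SNHG12 (chr1:28578538-28582983) has 4, and both are on the minus strand. SNHG8 (chr4:118278762-118279823) holds 1, SNORA24. SNHG16 (chr17:76557764-76565348) and ZFAS1 (chr20:49278178-49289260) hold 3 each, and all of these 3 genes are on the plus strand. SNHG15 (chr7:44983023-44986696) and SNHG6 hold 1 each. SNHG14 is of another size, with 84 snoRNAs in a span of 595855 bases at chr15:24823608-25419462. It is the transcript of the imprinted Prader-Willi region, expressed from the paternal chromosome, and its far end runs antisense to UBE3A.

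Start regions of 8 of the 10 genes were taken from RefSeq (GRCh38.p14), and SNHG6 and SNHG15 had no entry there. They are shown because the TOP tract is the sequence feature that such hosts are known for. Each line runs 5' to 3' on the gene's own strand from 25 bases before the start that the RefSeq promoter table uses to 25 bases from it on, and capitals mark CTTTT or CTTTC within 10 bases on either side of the start.
GAS5: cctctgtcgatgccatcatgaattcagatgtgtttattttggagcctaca
SNHG1: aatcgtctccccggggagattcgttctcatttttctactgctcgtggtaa
SNHG5: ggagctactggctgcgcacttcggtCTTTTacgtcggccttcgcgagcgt
SNHG8: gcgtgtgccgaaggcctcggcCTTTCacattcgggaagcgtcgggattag
SNHG12: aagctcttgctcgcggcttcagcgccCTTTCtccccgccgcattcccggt
SNHG14: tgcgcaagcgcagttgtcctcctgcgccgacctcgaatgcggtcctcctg
SNHG16: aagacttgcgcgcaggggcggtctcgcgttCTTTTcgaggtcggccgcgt
ZFAS1: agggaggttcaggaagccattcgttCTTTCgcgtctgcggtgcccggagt
In SNHG5 and ZFAS1 the tract began at the first transcribed base, in SNHG12 at the second and in SNHG16 at the sixth, while in SNHG8 it began 4 bases before the start. These 5 of 8 (62.5%) had CTTTT or CTTTC on the gene's strand, against 5.63% of the 35116 start regions in the whole table, 26.7% of 15 other noncoding snoRNA hosts and 57.1% of 63 ribosomal protein genes. On the other strand the shares were 0% of the 8 hosts, 3.46% of all regions, 6.67% of the other noncoding hosts and 1.59% of ribosomal protein genes. The letters were chosen after the sequences had been seen, and a match is a description of the letters only. Only the start in the promoter table was searched for each gene, whereas GAS5 has 50 RefSeq transcripts. A host without a match here may have such a tract at another start, which was not examined. SNHG1 starts with a C and has a run of T within its first bases, which the search did not count.

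Total counts were 26076504 to 35117370 in NPC and 19529738 to 26028174 in ESC for total RNA. For ribosome-bound RNA they were 3274208 to 4451196 in NPC and 2422756 to 3606539 in ESC. A transcript with 0 counts could have stood at 0.674 to 1.24 CPM (counts scaled to the library's own total and multiplied up to a common library size) in the ribosome-bound libraries, the value of 3 counts, and at 0.0854 to 0.154 CPM in total RNA, by counting error only. Every member was above this floor in every library. Markers separated the states as labelled. In total RNA, 6 pluripotency genes (POU5F1, NANOG, DNMT3B, TDGF1, GDF3 and L1TD1) summed to 483 to 494 CPM in NPC and 5110 to 5890 CPM in ESC, and 6 neural progenitor genes to 249 to 262 CPM in NPC and 20.0 to 23.7 CPM in ESC. Of 4 neural crest markers 2 rose and 2 fell, summing to 97.0 to 99.7 CPM in NPC and 42.3 to 44.6 CPM in ESC. Trophoblast and amnion markers summed to 76.8 to 78.1 CPM in NPC and 65.9 to 70.4 CPM in ESC, neuron markers to 7.25 to 9.51 CPM in NPC and 11.5 to 16.0 CPM in ESC, and mesoderm and endoderm markers to 0.887 to 1.14 CPM in NPC and 10.1 to 10.9 CPM in ESC. On ribosomes the pluripotency genes summed to 404 to 471 CPM in NPC and 1730 to 2850 CPM in ESC, and the neural progenitor genes to 164 to 208 CPM in NPC and 57.4 to 73.3 CPM in ESC. The mesoderm and endoderm markers, all 5 of which were lower in NPC there, summed to 1.99 to 3.97 CPM in NPC and 246 to 266 CPM in ESC. Neural crest markers summed on ribosomes to 132 to 160 CPM in NPC and 31.9 to 42.7 CPM in ESC. CGA and NEUROG2 were at 0 in ESC, and no marker was at 0 in NPC. The part of these other cell types in the results below was not tested.

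Ribosome-bound libraries also held snoRNAs. Over 428 rows that RefSeq calls snoRNA, they summed to 12260 to 16800 CPM in NPC and 4305 to 9701 CPM in ESC, whereas total RNA held 245.7 to 257.7 CPM in NPC and 309.7 to 335.1 CPM in ESC. Of 103 rows for snoRNAs inside the 10 hosts, 67 were listed at 0 in all 12 libraries, as were 217 of all 428 snoRNA rows. SNHG14 held 83 of the 103, and of the 20 rows in the other hosts 16 were at 0. Among them were the 6 rows of SNHG1, namely SNORD22, SNORD25, SNORD26, SNORD27, SNORD28 and SNORD30. The 11 snoRNAs of GAS5 and the remaining 3 of SNHG1 had no row under their RefSeq symbols. The sources used here do not say whether reads inside a snoRNA were counted for its host, so a host's count cannot be read as spliced transcript alone.

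In total RNA, most of these transcripts were lower in neural progenitors. SNHG1, SNHG5, SNHG6, SNHG8, SNHG12, SNHG14, SNHG16 and ZFAS1 fell, by 1.25-fold to 2.02-fold, and GAS5 alone among the 10 passed as higher, by 1.17-fold. SNHG15 did not pass. This made 8 of 10 lower and 1 of 10 higher, where 26.2% and 26.4% of all 18631 genes tested were lower and higher (52.6% in either direction; edgeR quasi-likelihood test, Benjamini-Hochberg adjustment over all genes, threshold 0.05). In CPM, all NPC libraries lay below all ESC libraries for 8 of 10 and above them for 1, where 27.5% and 35.7% of all genes tested did so (63.2% together). The median log2 fold change of NPC over ESC was −0.63 for the 10 and 0.03 for all genes tested.

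**Figure D1:**
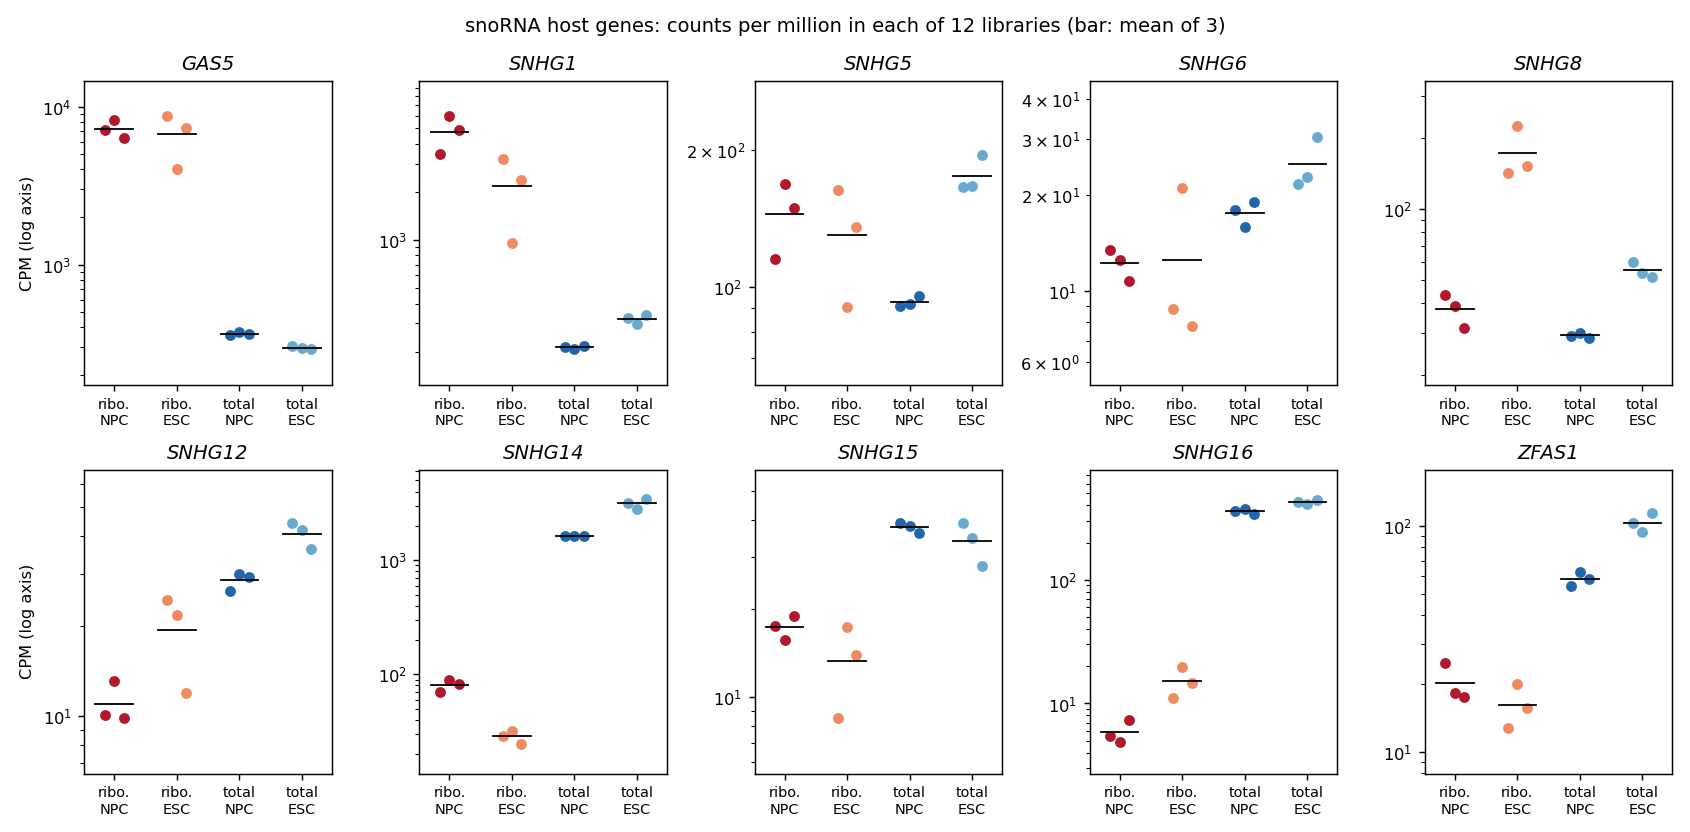
CPM on a log axis for each host gene in each library, with ribosome-bound RNA (ribo.) and total RNA of NPC and ESC along the horizontal axis; each point is a library and the bar is the mean of 3. GAS5 and SNHG1 are higher in every ribosome-bound library than in any total RNA library, and SNHG14 and SNHG16 are lower.

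SNHG14 was the most abundant of the 10 in counts, at 1637, 1621 and 1642 CPM in NPC total RNA and 3150, 2817 and 3464 CPM in ESC. The states did not overlap, and the difference was −1.01 ± 0.09 on the log2 scale (SE, adjusted p = 4.51e-05). In total RNA it took 57.0% to 58.0% of the counts of all 10 hosts in NPC and 66.6% to 69.4% in ESC. SNRPN, a protein-coding gene inside its span that was named after its values had been seen, stood at −0.57 ± 0.16 (adjusted p = 0.0185), a call lost without NPC replicate 2 (0.0745) or 3 (0.0783). SNURF and UBE3A, which also overlap SNHG14, were not compared. SNHG5, the host of the SNORD50 pair, had 91.2, 92.0 and 95.6 CPM in NPC and 165, 167 and 194 CPM in ESC. It fell by 0.98 ± 0.09 on the log2 scale (adjusted p = 7.75e-05), and all NPC libraries were below all ESC libraries.

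SNHG8 moved like SNHG5. It had 29.2, 30.0 and 28.6 CPM in NPC and 59.7, 53.8 and 51.8 CPM in ESC, a log2 difference of −0.98 ± 0.11 (adjusted p = 2.29e-04). ZFAS1, whose gene starts beside ZNFX1 on the opposite strand, had 54.3, 62.1 and 57.8 CPM in NPC and 103, 93.4 and 113 CPM in ESC (−0.90 ± 0.11, adjusted p = 2.72e-04). SNHG1, also known as UHG, the host gene of SNORD22, had 213, 209 and 216 CPM in NPC and 326, 296 and 341 CPM in ESC (−0.66 ± 0.09, adjusted p = 3.99e-04). In each of these 3 genes the states did not overlap.

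Smaller differences were seen for the next 3. SNHG12 had 26.2, 30.0 and 29.3 CPM in NPC and 44.3, 41.8 and 36.4 CPM in ESC (−0.59 ± 0.13, adjusted p = 0.00636). SNHG6, the host of SNORD87, had 17.9, 15.9 and 19.0 CPM in NPC and 21.7, 22.9 and 30.5 CPM in ESC, a wider spread in which ESC replicate 3 was the highest (−0.57 ± 0.15, adjusted p = 0.0152). SNHG16, the host of the SNORD1 group, had 358, 371 and 343 CPM in NPC and 428, 408 and 442 CPM in ESC (−0.32 ± 0.08, adjusted p = 0.0121). None of the 3 overlapped between states. The calls were lost for SNHG6 without NPC replicate 1 (adjusted p = 0.0544) or 2 (0.0786) and for SNHG16 without NPC replicate 1 (0.0574) or 3 (0.0774).

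GAS5 went the other way by a small step. It had 359, 373 and 362 CPM in NPC and 304, 295 and 293 CPM in ESC, and although the states did not overlap, its adjusted p of 0.0482 (0.23 ± 0.08) lay close to the threshold. The call was lost in the fit blocked by replicate number (adjusted p = 0.0753), with DESeq2 (0.103), with DESeq2's size factors (0.0737), with no filter on low counts (0.161), and without any of the libraries other than ESC replicate 3 (0.107 to 0.174). SNHG15, the host of SNORA9, had 39.2, 38.0 and 36.1 CPM in NPC and 39.0, 34.7 and 28.0 CPM in ESC, and these overlapped (0.09 ± 0.15, adjusted p = 0.662). Its value was −0.05 without ESC replicate 3, its lowest library.

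On ribosomes the 10 transcripts split. SNHG14 and SNHG1 rose in NPC, by 2.88-fold and 2.26-fold, whereas SNHG8, SNHG16 and SNHG12 fell, by 4.47-fold, 2.46-fold and 1.71-fold. GAS5, SNHG5, SNHG6, SNHG15 and ZFAS1 did not pass. The 2 higher and 3 lower of 10 stood against 31.6% higher and 30.3% lower among all 12250 genes tested, 61.8% together (edgeR, adjusted p), with a median log2 value of 0.17 for the 10 and −0.01 for all genes tested. The states did not overlap in CPM for 4 of 10, with NPC above for 2 and below for 2, where 34.2% and 32.8% of all genes tested did so (67% together).

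**Figure D2:**
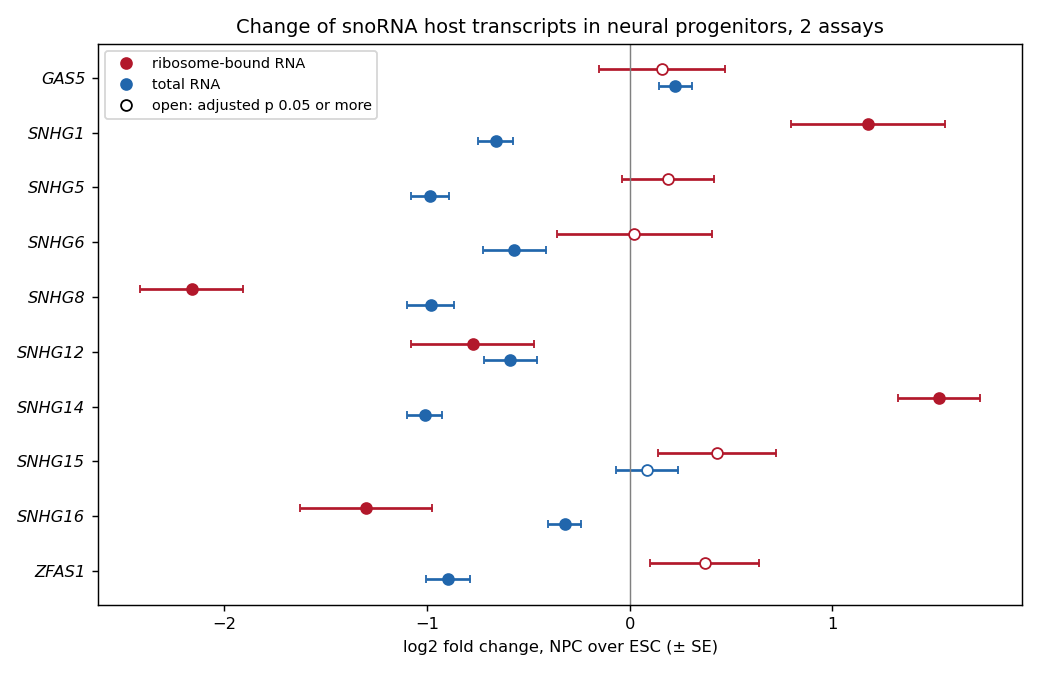
log2 fold change of NPC over ESC (horizontal axis, ± SE) for each host gene in ribosome-bound RNA (red) and total RNA (blue), with open points for adjusted p of 0.05 or more. SNHG1 and SNHG14 lie right of 0 on ribosomes and left of 0 in total RNA, while SNHG8, SNHG12 and SNHG16 lie left of 0 in both.

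SNHG14 had 70.9, 89.1 and 82.0 CPM on ribosomes in NPC and 29.0, 32.2 and 24.7 CPM in ESC. All NPC libraries were above all ESC libraries (1.53 ± 0.20, adjusted p = 5.61e-05), the reverse of total RNA. SNRPN within its span was not called on ribosomes (0.50 ± 0.27, adjusted p = 0.127), but the difference between the assays was called for it, as given further on. SNHG1 had 3441, 5970 and 4876 CPM in NPC and 3219, 956 and 2365 CPM in ESC. The states did not overlap, but NPC replicate 1 and ESC replicate 1 were close together and ESC replicate 2 was far below the others (1.17 ± 0.38, adjusted p = 0.0182). The value was 0.82 without ESC replicate 2 (adjusted p = 4.18e-04), and the call was lost without ESC replicate 3 (adjusted p = 0.0511) or NPC replicate 2 (0.0701).

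SNHG8, which hosts a single H/ACA snoRNA, showed the largest change of the 10 on ribosomes. It had 43.4, 39.0 and 31.5 CPM in NPC and 142, 224 and 152 CPM in ESC, with no overlap (−2.16 ± 0.25, adjusted p = 2.35e-05). SNHG16 was near the bottom of the range, with 5.50, 4.84 and 7.41 CPM in NPC and 11.1, 19.8 and 14.7 CPM in ESC, which rested on 17 to 33 counts per NPC library and 34 to 53 counts per ESC library (−1.30 ± 0.33, adjusted p = 0.00454). SNHG12 had 10.1, 13.1 and 9.88 CPM in NPC and 24.4, 21.9 and 11.9 CPM in ESC. The ESC replicate 3 value lay among those of NPC, and the call (−0.78 ± 0.30, adjusted p = 0.0419) was lost without ESC replicate 1 (adjusted p = 0.144), without NPC replicate 1, 2 or 3 (0.112, 0.0645 and 0.136) and with the replicate block (0.0595).

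The 5 hosts that were not called overlapped between states, as SNHG12 did. GAS5 had 7151, 8276 and 6340 CPM in NPC and 8743, 4038 and 7335 CPM in ESC (0.16 ± 0.31, adjusted p = 0.671), and the value was −0.09 without ESC replicate 2. SNHG5 had 115, 169 and 149 CPM in NPC and 164, 90.8 and 136 CPM in ESC (0.19 ± 0.23, adjusted p = 0.487). SNHG6 had 13.4, 12.5 and 10.8 CPM in NPC and 8.80, 21.1 and 7.76 CPM in ESC (0.02 ± 0.38, adjusted p = 0.961), from 27 to 51 counts per library. In all 3 genes ESC replicate 2 was the library furthest from its group mean on the log2 scale, though other libraries deviated too. SNHG15 had 17.4, 15.7 and 18.9 CPM in NPC and 8.47, 17.3 and 13.9 CPM in ESC (0.43 ± 0.29, adjusted p = 0.217), and passed without ESC replicate 2 (0.68, adjusted p = 0.0278). ZFAS1 had 24.7, 18.2 and 17.5 CPM in NPC and 12.7, 19.8 and 15.5 CPM in ESC (0.37 ± 0.27, adjusted p = 0.253).

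ESC replicate 2 of the ribosome-bound libraries divided the hosts. Relative to the mean of the other ESC libraries it held 0.502 times as much GAS5, 0.343 times as much SNHG1 and 0.607 times as much SNHG5. The other 7 hosts were higher there, at 2.54 times for SNHG6 and less for the rest, SNHG12 and SNHG14 being the least raised. The 428 snoRNA rows together stood at 0.474 times in the same library. In NPC replicate 2, in turn, the snoRNA rows stood at 1.36 times the mean of the other NPC libraries, with GAS5 at 1.23, SNHG1 at 1.44 and SNHG5 at 1.27 times, but SNHG12 at 1.31 and SNHG14 at 1.17 times were raised there too. In NPC replicate 3 the snoRNA rows stood at 0.862 and GAS5 at 0.822 times, while SNHG1 was at 1.04 and SNHG5 at 1.05 times. NPC replicate 1 had the snoRNA rows at 0.836, GAS5 at 0.978, SNHG1 at 0.635 and SNHG5 at 0.724 times. SNHG12, SNHG14 and SNHG16 were lower there too. In ESC replicates 1 and 3 the snoRNA rows stood at 1.52 and 1.21, GAS5 at 1.54 and 1.15 times. SNHG1 was at 1.94 and 1.13 there, SNHG5 at 1.44 and 1.07, and SNHG12 at 1.45 and 0.515 times. The means for these ESC replicates include ESC replicate 2. The part of the snoRNA content in the hosts' values was not tested.

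**Figure D3:**
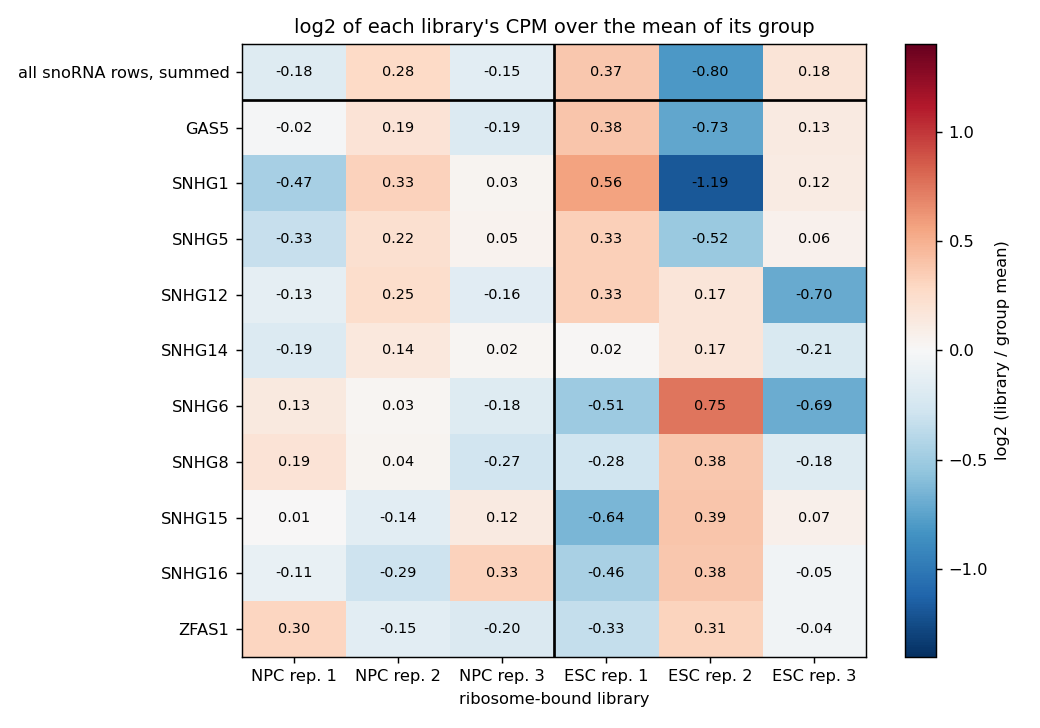
log2 of the CPM of each ribosome-bound library over the mean of its own group, for the summed snoRNA rows and the 10 host genes (rows) in 3 NPC and 3 ESC libraries (columns). In ESC replicate 2 the summed snoRNA rows, GAS5, SNHG1 and SNHG5 are below their group mean (−0.80, −0.73, −1.19 and −0.52) and the other hosts are above it.

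Ribosome-bound RNA was next set against total RNA within each state. The ratio is relative to the typical gene and is no absolute share of a transcript on ribosomes. GAS5, SNHG1 and SNHG8 were higher on ribosomes in both states, and SNHG12, SNHG14, SNHG15, SNHG16 and ZFAS1 were lower in both. SNHG5 passed in NPC and SNHG6 in ESC; the difference between states itself passed for SNHG5 and not for SNHG6, as given further on.

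In NPC, 4 of 10 were higher and 5 lower, where 30.8% and 33.3% of 11866 genes were (64.1% together). In ESC 3 were higher and 6 lower, where 30.6% and 37.5% of genes were (68.2% together; edgeR, adjusted p). The median log2 value of the 10 was −0.57 in NPC and −0.85 in ESC, that of all genes tested −0.04 in NPC and −0.14 in ESC, and that of the 152 other lncRNAs tested −0.79 in NPC and −1.02 in ESC. Scaling by library totals lowered the median over all genes by 0.26 in NPC and 0.20 in ESC, and DESeq2's size factors raised it by 0.08 and 0.15.

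The GAS5 count was among those most enriched on ribosomes, though it may include reads of the snoRNAs inside the gene. Its mean was 7256 ± 972 CPM on ribosomes and 365 ± 7.43 CPM in total RNA of NPC, and 6705 ± 2410 CPM on ribosomes and 297 ± 5.78 CPM in total RNA of ESC (SD, n = 3 each). The fitted difference was 4.57 ± 0.26 in NPC (adjusted p = 5.73e-10) and 4.69 ± 0.26 in ESC (adjusted p = 4.85e-10), or 23.8-fold and 25.7-fold. Of all genes tested, 99.4% had a lower value in NPC and 99.3% in ESC, and among the 152 other lncRNAs 4 had a higher value in each state. SNHG1 had 4762 ± 1270 CPM on ribosomes and 213 ± 3.83 CPM in total RNA of NPC, and 2180 ± 1140 CPM on ribosomes and 321 ± 22.5 CPM in total RNA of ESC (SD, n = 3 each). Its differences were 4.74 ± 0.34 in NPC (adjusted p = 8.69e-09) and 2.95 ± 0.32 in ESC (adjusted p = 5.76e-07). GAS5 and SNHG1 together took 1.06% to 1.42% of the ribosome-bound counts in NPC and 0.499% to 1.2% in ESC, but 0.0572% to 0.0582% of total RNA in NPC and 0.0592% to 0.0633% in ESC. The 35 snoRNA rows tested had a median of 5.45 in NPC and 4.11 in ESC, with quartiles of 3.29 and 8.22 in NPC and 1.90 and 6.70 in ESC.

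SNHG8 and SNHG5 were enriched to a lesser degree. SNHG8 averaged 37.9 ± 6.03 CPM on ribosomes and 29.3 ± 0.721 CPM in total RNA of NPC, and 172 ± 44.7 CPM on ribosomes and 55.1 ± 4.14 CPM in total RNA of ESC (SD, n = 3 each). The differences were 0.63 ± 0.21 in NPC (adjusted p = 0.0143) and 1.87 ± 0.20 in ESC (adjusted p = 7.11e-07), and the NPC call was lost with scaling by library totals (0.37, adjusted p = 0.100) and without ribosome-bound NPC replicate 1 (0.51, adjusted p = 0.0740). SNHG5 averaged 144 ± 27.1 CPM on ribosomes and 92.9 ± 2.31 CPM in total RNA of NPC, and 130 ± 36.7 CPM on ribosomes and 175 ± 16.3 CPM in total RNA of ESC. It passed in NPC (0.89 ± 0.18, adjusted p = 5.06e-04) and not in ESC (−0.24 ± 0.18, adjusted p = 0.263).

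**Figure D4:**
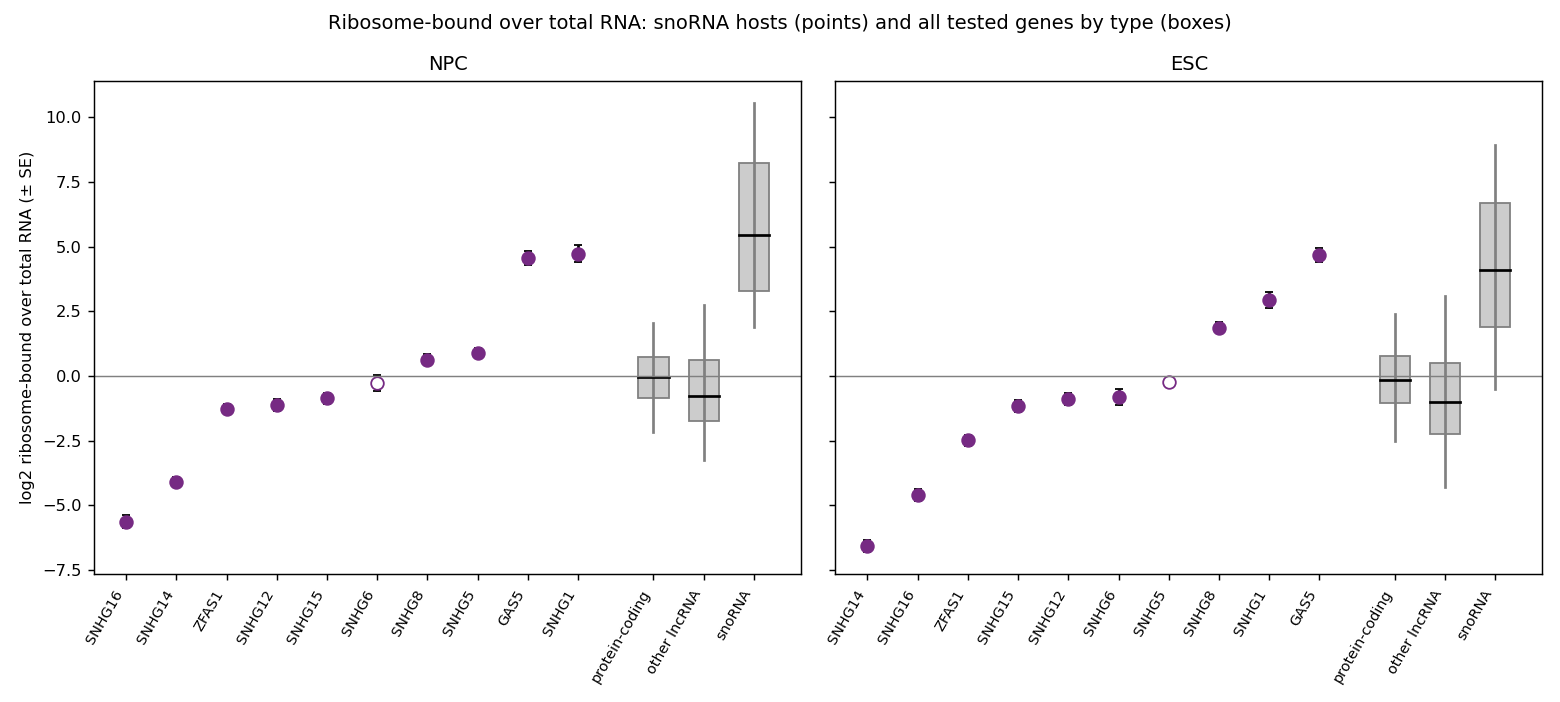
log2 of ribosome-bound over total RNA (vertical axis, ± SE) in NPC (left) and ESC (right) for the 10 host genes in rising order, with open points for adjusted p of 0.05 or more; the boxes at the right give the median, quartiles and 5th to 95th percentiles of protein-coding, other lncRNA and snoRNA genes tested. The hosts run from −5.64 (SNHG16) to 4.74 (SNHG1) in NPC and from −6.57 (SNHG14) to 4.69 (GAS5) in ESC.

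SNHG16 and SNHG14 lay at the other end. SNHG16 averaged 5.92 ± 1.34 CPM on ribosomes and 357 ± 14.0 CPM in total RNA of NPC, and 15.2 ± 4.39 CPM on ribosomes and 426 ± 17.4 CPM in total RNA of ESC. Its log2 value was −5.64 ± 0.25 in NPC (adjusted p = 3.70e-11) and −4.61 ± 0.23 in ESC (adjusted p = 1.44e-10), so that 0.160% of the genes tested were lower in NPC and 0.413% in ESC. SNHG14 averaged 80.7 ± 9.21 CPM on ribosomes and 1634 ± 11.1 CPM in total RNA of NPC, and 28.6 ± 3.77 CPM on ribosomes and 3144 ± 324 CPM in total RNA of ESC. Its values were −4.08 ± 0.20 in NPC (adjusted p = 1.06e-10) and −6.57 ± 0.23 in ESC (adjusted p = 3.87e-12). SNRPN within the span of SNHG14 was also lower on ribosomes in both states (edgeR). It stood at −0.66 ± 0.20 in NPC (adjusted p = 0.00827) and −1.69 ± 0.21 in ESC (adjusted p = 3.39e-06). For comparison, the nuclear lncRNA NEAT1, a scaffold of paraspeckles, stood at −4.73 ± 0.19 in NPC and −8.55 ± 0.40 in ESC. It was the lowest of the 3 nuclear lncRNAs listed. Their median was −2.67 in NPC and −5.12 in ESC, and their highest value −0.90 in NPC and −2.31 in ESC.

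ZFAS1 came next, with 20.2 ± 3.98 CPM on ribosomes and 58.0 ± 3.91 CPM in total RNA of NPC, and 16.0 ± 3.58 CPM on ribosomes and 103 ± 9.83 CPM in total RNA of ESC. It was lower on ribosomes by 2.41-fold in NPC (−1.27 ± 0.20, adjusted p = 4.79e-05) and 5.61-fold in ESC (−2.49 ± 0.22, adjusted p = 5.00e-08). SNHG12 stood at −1.12 ± 0.24 in NPC (adjusted p = 6.32e-04) and −0.88 ± 0.23 in ESC (adjusted p = 0.00283), and SNHG15 at −0.86 ± 0.22 in NPC (adjusted p = 0.00313) and −1.16 ± 0.24 in ESC (adjusted p = 4.20e-04). SNHG6 was not called in NPC (−0.27 ± 0.30, adjusted p = 0.445). In ESC it passed (−0.82 ± 0.31, adjusted p = 0.0268), but not with DESeq2 (adjusted p = 0.0641), with DESeq2's size factors (0.0702), or without ribosome-bound ESC replicate 1 (0.135) or 3 (0.173).

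The ratio itself changed between states for 6 of the 10. It was higher in NPC for SNHG14, SNHG1, ZFAS1 and SNHG5, and lower for SNHG8 and SNHG16. Host counts may include reads inside snoRNAs, so a changed ratio is not shown to be movement of the spliced transcript. The 4 higher and 2 lower stood against 22.9% higher and 19.0% lower of 11866 genes tested, 41.9% together (edgeR quasi-likelihood test of the interaction of assay and state, Benjamini-Hochberg adjustment), with a median log2 value of 0.42 for the 10 and −0.05 for all genes tested. SNHG14 changed most, by 2.49 ± 0.26 or 5.62-fold (adjusted p = 4.70e-06), a value that 97.9% of all genes tested did not reach. SNRPN within its span changed in the same direction, by 1.02 ± 0.29 (adjusted p = 0.0112 in the same test). SNHG1 changed by 1.79 ± 0.42 (adjusted p = 0.00320), ZFAS1 by 1.22 ± 0.29 (adjusted p = 0.00384) and SNHG5 by 1.13 ± 0.26 (adjusted p = 0.00279). For ZFAS1 and SNHG5 the higher ratio came with a fall in total RNA while the level on ribosomes was not called.

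SNHG8 changed by −1.24 ± 0.29 (adjusted p = 0.00306), having fallen further on ribosomes than in total RNA. SNHG16 changed by −1.03 ± 0.32 (adjusted p = 0.0174), which was lost without ribosome-bound NPC replicate 2 (adjusted p = 0.0509). GAS5 (−0.11 ± 0.32, adjusted p = 0.793), SNHG12 (−0.24 ± 0.33, adjusted p = 0.577), SNHG15 (0.29 ± 0.33, adjusted p = 0.486) and SNHG6 (0.55 ± 0.43, adjusted p = 0.315) did not pass. SNHG6 passed without ribosome-bound ESC replicate 2 (1.16, adjusted p = 0.00833), and SNHG15 when RNA ESC replicate 3 was left out together with it (0.66, adjusted p = 0.0220). Beside these values, 25 of the 35 snoRNA rows tested were higher in this contrast (edgeR), with a median of 1.74. The nuclear lncRNAs MALAT1, NEAT1 and KCNQ1OT1 were 3 of 3 higher, with KCNQ1OT1 at 2.45 ± 0.54 (adjusted p = 0.00196) and NEAT1 at 3.82 ± 0.70 (adjusted p = 4.85e-04).

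Other noncoding hosts were listed with earlier results of these data known. Of 18, 16 could be tested in total RNA and 3 rose and 5 fell, with a median of −0.01, where 26.4% of all genes rose and 26.2% fell. MEG8, an imprinted host from the DLK1 region, rose by 6.27 ± 0.38 (adjusted p = 7.14e-06), and SNHG4 fell by 2.07 ± 0.12 (adjusted p = 5.67e-06). DANCR, also known as SNHG13, fell by 1.62 ± 0.20 (adjusted p = 2.86e-04). On ribosomes 1 of 11, EPB41L4A-AS1, rose (1.05 ± 0.24, adjusted p = 0.00226) and 6 fell, led by DANCR (−3.50 ± 0.40, adjusted p = 1.91e-05; edgeR). There 31.6% of all genes tested rose and 30.3% fell. Of 10 tested for ribosome-bound over total RNA, 2 were higher and 7 lower in NPC and 1 higher and 6 lower in ESC. SNHG25 was enriched like GAS5, at 5.97 ± 0.47 in NPC (adjusted p = 2.29e-08) and 5.90 ± 0.44 in ESC (adjusted p = 1.03e-08), and SNHG3 was depleted like SNHG16, at −5.90 ± 0.33 in NPC (adjusted p = 4.99e-10) and −5.06 ± 0.29 in ESC (adjusted p = 5.61e-10).

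Hosts that encode proteins gave 9 rises and 10 falls of 36 in total RNA (median 0.13) and 8 rises and 14 falls of 34 on ribosomes (median −0.20). Of all genes tested, 26.4% rose and 26.2% fell in total RNA, and 31.6% rose and 30.3% fell on ribosomes. RPL3, a protein of the large ribosomal subunit, rose on ribosomes by 2.39 ± 0.23 (adjusted p = 6.37e-06), and RCC1, the exchange factor of Ran, fell by 2.20 ± 0.27 (adjusted p = 2.82e-05). Ribosomal protein mRNAs, the main TOP class, rose in 33 and fell in 4 of 78 cases in total RNA (median 0.35). On ribosomes they rose in 14 and fell in 38 of 72 (median −0.64), and their ratio was lower in 39 and higher in 8 of 72 (median −1.02). For the ratio, 19.0% of all genes tested were lower and 22.9% higher. The members had medians of the opposite sign in each of these 3 comparisons. For ribosome-bound over total RNA within a state both medians were negative. They were −1.785 for ribosomal protein mRNAs and −0.57 for the members in NPC, and −0.75 and −0.85 in ESC. The protein-coding host and ribosomal protein lists share genes, RPL3 among them.

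Proteins that build snoRNA particles were lower in part. Of 20 such genes 9 fell in total RNA (edgeR; median −0.50), with SHQ1, an assembly factor of H/ACA particles, at −1.12 ± 0.13 (adjusted p = 2.17e-04) and the ATPase RUVBL1 at −1.11 ± 0.10 (adjusted p = 6.64e-05). On ribosomes 9 fell (median −0.58), among them NOP10 (−1.44 ± 0.30, adjusted p = 0.00152) and NOP58, a core protein of C/D particles (−1.36 ± 0.34, adjusted p = 0.00401). Factors of nonsense-mediated decay were mixed, with 5 rises and 5 falls of 19 in total RNA (median −0.07) and 8 rises and 4 falls on ribosomes (median 0.51). Beside both lists, 26.4% of all genes tested rose and 26.2% fell in total RNA, and 31.6% rose and 30.3% fell on ribosomes. SMG9 rose in total RNA by 0.96 ± 0.23 (adjusted p = 0.00812) and XRN1, the exonuclease, by 0.86 ± 0.17 (adjusted p = 0.00394). On ribosomes UPF3B rose by 2.00 ± 0.21 (adjusted p = 1.16e-05) and MAGOH, of the exon junction complex, fell by 1.63 ± 0.19 (adjusted p = 2.41e-05).

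The snoRNAs with reads inside these hosts were few outside SNHG14. SNORD12C, in ZFAS1, and SNORD99, in SNHG12, gave most of them. ZFAS1's 3 snoRNA rows together held 285 counts on ribosomes in NPC and 138 in ESC, and 251 in total RNA of NPC and 317 in ESC. Those of SNHG12 held 172 counts on ribosomes in NPC and 34 in ESC, against 38 in total RNA of NPC and 50 in ESC, and those of SNHG16 held 65 on ribosomes in NPC and 13 in ESC, and 23 in total RNA of NPC and 27 in ESC. In SNHG14, 32 of 83 rows held any count, in total 98 on ribosomes in NPC and 7 in ESC, with 283 in total RNA of NPC and 928 in ESC. SNORD116-17 alone had 51, 70 and 43 counts in total RNA of NPC and 257, 320 and 221 counts in ESC. Depth differed between the assays, so the summed counts are not levels. In CPM the SNHG14 rows stood at 8.09 to 9.68 on ribosomes and 2.65 to 3.62 in total RNA of NPC. In ESC they stood at 0.326 to 1.39 CPM on ribosomes and 13.4 to 14.6 CPM in total RNA. For the snoRNA rows of ZFAS1, SNHG12 and SNHG16, CPM was higher in every ribosome-bound NPC library than in any NPC total RNA library. For these hosts the assays overlapped in ESC.

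Over the 12 libraries the members did not share a profile. The median of their centred log2 CPM was followed by ZFAS1 (Pearson r = 0.950), SNHG12 and SNHG16 (0.926 each), SNHG14 (0.923), SNHG6 (0.870) and SNHG15 (0.794). It was opposed by GAS5 (−0.942) and SNHG1 (−0.887), while SNHG5 and SNHG8 stood at 0.0354 and −0.305. Among 11715 other named genes, those most like this median were MTMR12 (0.979), C4orf46 (0.978), WSB2 (0.975), ZBTB44 (0.973) and FRMD5 (0.972). The 12 libraries fall into 4 groups, mostly apart by assay, which these points share.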

How the data were processed

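The authors deposited 1 table of raw counts, with a gene symbol in each line and a column for each library. Tools named in the submitters' processing notes are featureCounts 1.6.4, STAR 2.7.1a, Bowtie 1.2 and cutadapt 1.18, and hg38 (GRCh38) is the build. Not given in the sources used here are what each tool did, its annotation, and whether strand or multiply mapped reads were counted. Hosts that overlap other genes (GAS5 with ZBTB37, SNHG6 with MCMDC2, SNHG12 with TRNAU1AP, SNHG14 with SNRPN, SNURF and UBE3A) therefore have uncertain values. Each column matched the title of 1 sample.

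Counts were tested with edgeR 4.0.16 in R 4.3.3 (filterByExpr, TMM factors, quasi-likelihood F test, Benjamini-Hochberg adjustment over all genes tested, threshold 0.05), for NPC over ESC in each assay alone, and over all 12 libraries for ribosome-bound over total RNA in each state and its difference between states, restricted to genes kept by the filter in both assays. All 10 members passed in every fit. The standard error is the size of the log2 value divided by the square root of F. CPM values use the whole library total, whereas fold changes carry the TMM factors, so ratios of CPM differ somewhat from them. No gene lengths were used, so CPM values of different genes are not levels per length. Gene types and spans came from RefSeq (GRCh38.p14) by symbol or synonym. DESeq2 1.42.0 was the other tool; tables and plots used Python 3.11.15, pandas 2.3.3, numpy 2.4.6 and matplotlib 3.10.9.

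The members, gene lists and alternatives were chosen with earlier results of these data known. All 10 members were named in every comparison; of each other list, genes were named only from the 2 that rose most and the 2 that fell most among those past the threshold; of genes like the members, the 5 with the highest correlation (log2 CPM, prior count 2). Replicate numbers are shared between groups in the labels. In total RNA the deviations of same-numbered NPC and ESC libraries from their group means correlated at 0.105 to 0.294 over 18631 genes. Differently numbered libraries stood at −0.253 to 0.15. Over the 11866 genes kept in both assays, same-numbered total RNA libraries stood at 0.225 to 0.544, with replicate 3 the highest. Differently numbered ones stood at −0.506 to 0.349 there. The ranges overlap, so the values do not settle whether the numbers pair these libraries. The main fits had no block, and a value with the replicate number as a block is given where it changed a call. For same-numbered ribosome-bound libraries the correlations were −0.214 to −0.0024, and the numbers were not taken as pairs.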

Additional observations from a re-analysis of the deposited data

Results flagged for a closer look

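The change of the ribosome-bound to total RNA ratio between NPC and ESC, that is, a different response of the same gene in the assays, passed the interaction test in edgeR for 6 of the 10 hosts. It was 2.49 for SNHG14, 1.79 for SNHG1, 1.22 for ZFAS1, 1.13 for SNHG5, −1.24 for SNHG8 and −1.03 for SNHG16 on the log2 scale, and 41.9% of all 11866 genes tested passed in either direction. SNHG14 and SNHG1 were called in opposite directions in the assays. No formal outlier test was made in groups of 3 libraries.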

How the results depend on the processing

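In total RNA the number of hosts called higher was 0 in place of 1 with DESeq2's size factors, with no filter on low counts, with the DESeq2 Wald test and with the replicate block, and 0 to 1 over fits without 1 library; this was GAS5. On ribosomes the hosts called numbered 3 to 6 and those called higher 1 to 3 over fits without 1 library, and the hosts whose ratio was lower in NPC 1 to 2. The sign of some values that had not passed changed. SNHG6 on ribosomes stood at −0.0083 with DESeq2's size factors, at −0.033 with the DESeq2 Wald test and at −0.27 to 0.62 over fits without 1 library, GAS5 on ribosomes at −0.092 to 0.37 and its ratio change at −0.35 to 0.10, and SNHG15 in total RNA at −0.048 to 0.17. SNHG5 on ribosomes over total RNA in ESC was 0.027 without RNA ESC replicate 3 and ribosome-bound ESC replicate 2, the libraries that stand apart. The causes were not tested. With the replicate number as a block, the calls of members that changed were GAS5 in total RNA (0.23, adjusted p = 0.0753) and SNHG12 on ribosomes (−0.73, adjusted p = 0.0595; edgeR). Where a fit left 2 libraries in a group, the spread was pooled over the groups. Ribosome-bound values of SNHG16, SNHG6, SNHG12 and SNHG15 rest on few counts, 17 to 33 in the lowest library of each, which limits their precision.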
